A study of Mus musculus with 12 samples.

Results

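The genes described here are the subunits of the V-ATPase, the proton pump of acidic organelles, together with the enzymes and membrane proteins of the lysosome and the transcription factors Tfeb and Tfe3. They were taken by gene symbol from a list of 47 names, and all 47 were listed among the 24421 genes measured. The list held 18 V-ATPase genes (8 of the membrane sector V0, 8 of the cytosolic sector V1 and 2 accessory subunits), 27 lysosomal genes (9 proteases, 8 glycosidases or sulfatases, 6 enzymes and helpers of lipid breakdown, and 4 membrane proteins) and the 2 factors. RNA-seq was performed on mouse bone marrow-derived macrophages (BMMs), the cells from which osteoclasts are grown, in 2 experiments on C57BL/6 mice. In the loss of function experiment, WT cells (Mir182+/+LysMcre(+)) and Mir182ΔM/ΔM cells (Mir182flox/floxLysMcre(+)) were left unstimulated (basal) or received RANKL, the cytokine that turns BMMs into osteoclasts, for 5 days. In the gain of function experiment, Control cells (LysMcre(+)) and Mir182mTg cells (LSL-Mir182LysMcre(+)) were compared without RANKL. Every group carried LysMcre, a Cre recombinase inserted into the Lyz2 gene that acts in myeloid cells, so that the floxed Mir182 is removed, or the LSL-Mir182 transgene switched on, in that lineage. Marrow was grown with M-CSF for 3 days before stimulation. Each of the 6 conditions had 2 libraries, and the ages of the mice, and whether a library came from 1 mouse or several, are not given in the sources used here, so the tests measure the spread between libraries, which may be technical.

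The V-ATPase couples ATP hydrolysis in V1 to the passage of protons through V0. Several subunits exist as isoforms: subunit a as a1 (Atp6v0a1), a2 (Atp6v0a2) and a3 (Tcirg1), and subunit d as d1 (Atp6v0d1) and d2 (Atp6v0d2). The a3 and d2 forms are known for their place in the osteoclast, where the pump at the ruffled border acidifies the space over the bone, and loss of a3 causes osteopetrosis. Lysosomal hydrolases work at the low pH that the pump provides, and Tfeb and Tfe3, members of the MiT/TFE family, are known to raise the transcription of both pump and hydrolase genes through a short promoter motif called the CLEAR element.

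Libraries held 24951280 to 33050619 reads on genes, and values are given as CPM, the reads of a gene scaled to the same total in every library, in which 3 reads come to 0.0908 to 0.120. Differences are log2 ratios of CPM + 1 and are given ± their standard error (SE), with 2 libraries a group. In limma the SE of a gene is moderated and rests on a spread pooled over all groups of the fit. It is thus not the spread of the 2 compared groups alone, and it is the same for the WT and Mir182ΔM/ΔM responses. A gene was called where the p-value of limma's moderated test, adjusted over all genes tested by the Benjamini-Hochberg method, was under 0.05. The basal libraries had the macrophage markers of BMMs, with a summed level of 7 markers of 8468 to 8655 CPM in WT and 7624 to 7629 CPM in Mir182ΔM/ΔM. With RANKL that sum was 5683 to 5744 CPM in WT and 6011 to 6097 CPM in Mir182ΔM/ΔM, lower than basal in both. The summed level of 9 osteoclast markers was 22.0 to 29.7 CPM in WT basal and 9370.4 to 9871 CPM in WT RANKL. In Mir182ΔM/ΔM that sum was 27.7 to 34.0 CPM basal and 3056 to 3068 CPM with RANKL. Not every osteoclast marker followed the sum. Itgb3 was at 58.1 and 59.8 CPM in WT RANKL and higher, at 83.7 and 82.6 CPM, in Mir182ΔM/ΔM RANKL. Calcr overlapped between the genotypes after RANKL. Acp5, Ctsk, Dcstamp, Ocstamp, Mmp9, Oscar and Car2 were each lower in Mir182ΔM/ΔM RANKL than in WT RANKL. The 7 neutrophil markers listed summed to 90.9 to 100.04 CPM in WT basal and 21.9 to 22.2 CPM in WT RANKL, and to 109 to 115 CPM basal and 7.19 to 7.36 CPM with RANKL in Mir182ΔM/ΔM. Their part in the results was not tested. B cell, T cell, dendritic cell, mast cell and erythroid lists stayed at or below 3.71 CPM in sum in every library, the erythroid markers were at 0, and the stromal list summed to 1.48 to 30.7 CPM. The ribosomal RNA precursor Rn45s was at 742 to 1176 CPM in replicate 1 and 9778 to 21273 CPM in replicate 2. The Mir182 row was at 2.39 and 4.404 CPM in the Mir182mTg libraries and at most 0.0370 CPM in the 10 others, which checks the transgene but not the deletion. The WT RANKL libraries differed from the remaining 6 loss of function libraries in 2 genes used as a check of origin. Lyz2, the gene that carries the Cre, was at 4117 and 4288 CPM in WT RANKL but at 22.5 to 44.0 CPM in WT basal and both Mir182ΔM/ΔM groups, and at 5783 to 7062 CPM in Control and Mir182mTg. Ifi202b, an interferon-induced gene, was at 1.12 and 0.972 CPM in WT RANKL and at 82.1 to 152 CPM in those other 6 libraries. In the gain of function experiment Ifi202b was at 0 CPM in Control and at most 0.0908 CPM in Mir182mTg. In both genes WT RANKL thus lay nearer to Control and Mir182mTg than to WT basal and the Mir182ΔM/ΔM groups. Results that rest on WT RANKL are therefore set beside a second comparator, Control basal, and beside the response in Mir182ΔM/ΔM. The log2 changes of that response do not use the WT RANKL libraries. Its SE and adjusted p-values do, because the 4 groups of the fit share an estimate of the spread. In comparisons with WT RANKL, RANKL or genotype and the origin of the cells cannot be told apart.

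Promoter sequences, from 250 bases before to 50 after the annotated start, were found in RefSeq (GRCm38, the build also called mm10) for 36 of the 47 genes; none was at hand for Ctsh, Atp6v1h, Galns, Atp6v0d2, Npc1, Ctsb, Atp6v0a2, Atp6v1c1, Atp6v1b2, Atp6v1g1 and Asah1. The core of the CLEAR element, TCACGTGA, reads the same on both strands and contains the E-box CACGTG. It was present in 7 of the 36 (19.4%), namely Atp6v0d1, Atp6v0e, Atp6v1a, Ctsa, Ctsd, Gla and Mcoln1, against 1.12% of the 27025 genes with such a sequence. CACGTG alone was present in 13 of the 36 (36.1%), against 8.09% of all genes. The element is already known for acting on pump and hydrolase genes, and the list was made of such genes. These excesses are therefore not read as a result. The windows below show the match nearest to the start in each of the 7 genes, with the motif in capitals, because genes of the pump (the first 3) and of the lysosome share it.
Atp6v0d1, chr8:105566050-105566079, minus strand: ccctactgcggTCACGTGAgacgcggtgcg
Atp6v0e, chr17:26676387-26676416, plus strand: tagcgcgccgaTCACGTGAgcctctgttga
Atp6v1a, chr16:44139373-44139402, minus strand: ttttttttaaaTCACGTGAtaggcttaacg
Ctsa, chr2:164833766-164833795, plus strand: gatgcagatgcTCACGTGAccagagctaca
Ctsd, chr7:142387908-142387937, minus strand: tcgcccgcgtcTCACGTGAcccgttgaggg
Gla, chrX:134601182-134601211, minus strand: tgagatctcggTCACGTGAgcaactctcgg
Mcoln1, chr8:3500462-3500491, plus strand: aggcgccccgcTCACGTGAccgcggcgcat
These matches describe the letters in the window only; whether any factor bound them was not measured.

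The first question was how the pump and the lysosome changed when BMMs were driven toward osteoclasts. With RANKL in WT cells, V-ATPase genes mostly rose in CPM and lysosomal genes mostly fell. Among 17 V-ATPase genes tested, 11 were higher and 2 lower, and among 27 lysosomal genes 1 was higher and 23 were lower, when 40.6% of all 11691 genes tested were called higher and 22.0% lower. The median change was 0.46 for the V-ATPase genes and -0.80 for the lysosomal genes, beside 0.19 for all genes. In Mir182ΔM/ΔM cells most lysosomal genes also fell with RANKL, and few V-ATPase genes rose. There 2 V-ATPase genes were higher and 6 lower (median -0.10), and 3 lysosomal genes were higher and 23 lower (median -0.51), with 30.4% of all genes called higher, 26.4% lower and a median of 0.05. The 2 responses share no library. Of the 27 lysosomal genes, 21 fell in both genotypes. Of the 11 V-ATPase genes that rose in WT, 2 (Atp6v0a2 and Atp6v0d2) also rose in Mir182ΔM/ΔM, 2 (Atp6v1c1 and Atp6v1d) fell there and 7 did not pass the test. The osteoclast, neutrophil and macrophage marker sums given above moved with these changes in both genotypes, without overlap. In bulk RNA, fewer cells of a type and less RNA per cell cannot be told apart.

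Scaling moved these counts. The median gene was at 0.19 with RANKL in WT and at -0.01 after division by TMM factors, which assume that most genes do not change, and the share of calls that were higher went from 64.8% to 48.4% over all genes. With TMM factors 6 V-ATPase genes were higher and 4 lower with RANKL in WT, and 1 lysosomal gene was higher and 25 were lower (28.7% of all genes higher and 30.5% lower). Under that scaling the V-ATPase counts lay near the shares of all genes, and the count of lower lysosomal genes lay far above its share. None of the members called under both scalings changed direction. In Mir182ΔM/ΔM the same 34 members were called under both scalings (28.0% of all genes higher and 29.1% lower with TMM factors). The replicate numbers marked 2 processing rounds that paired the libraries, and with the replicate block 5 V-ATPase genes were higher and 10 lower with RANKL in Mir182ΔM/ΔM, where 42.7% of all genes were higher and 36.3% lower.

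**Figure D1:**
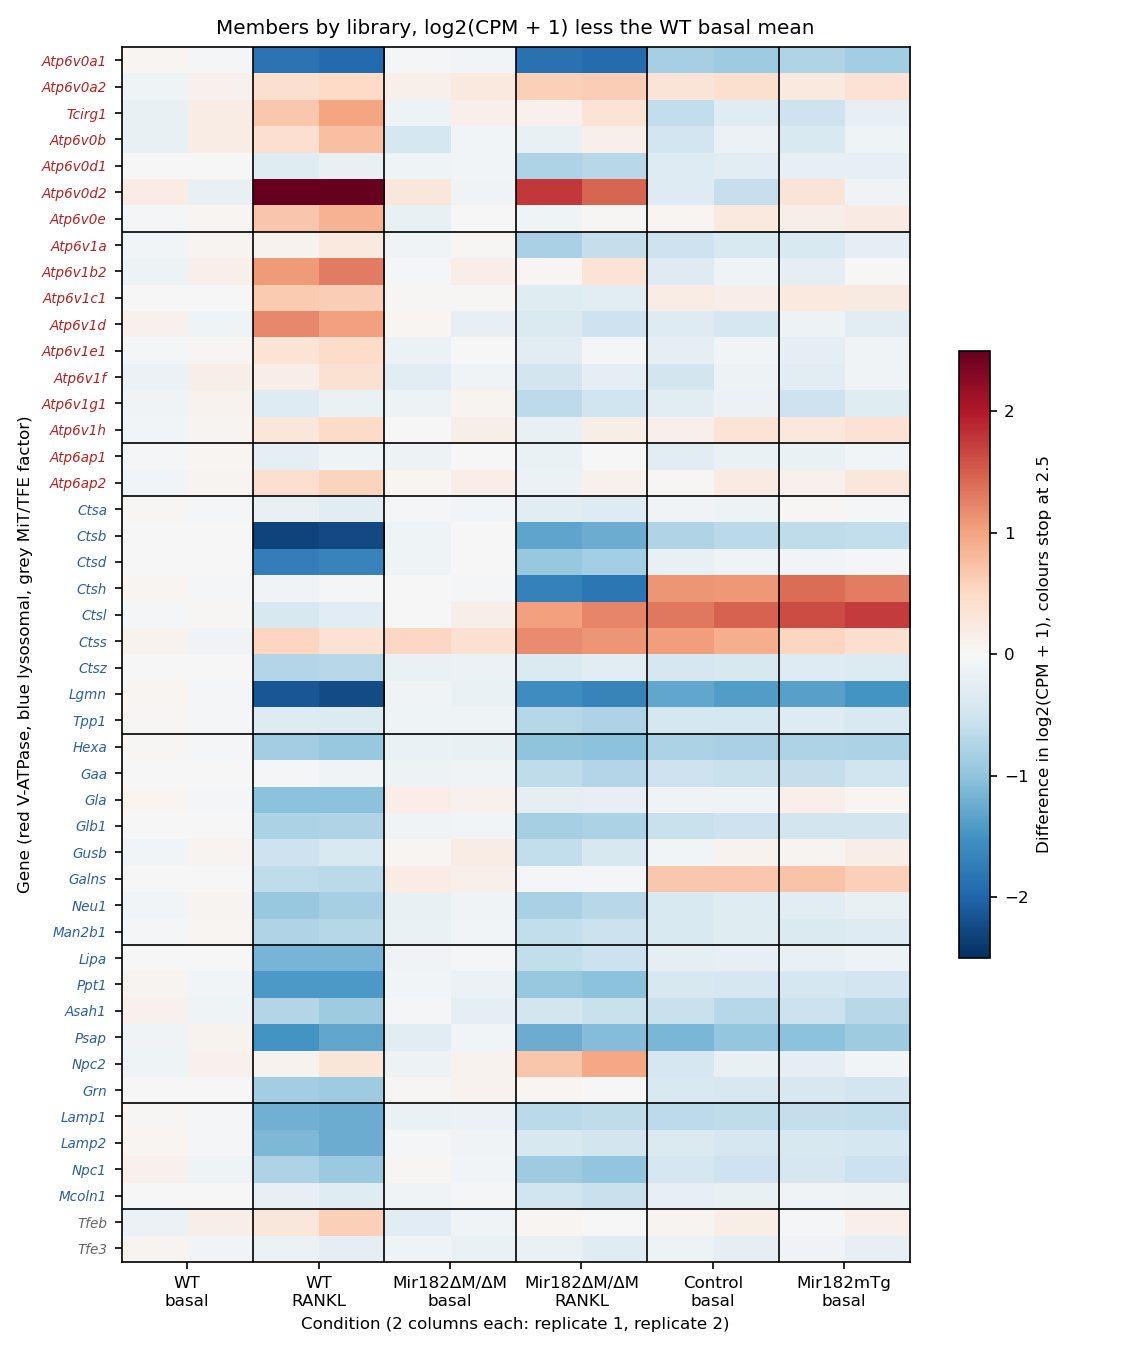
Level of each of the 46 members tested (rows, grouped by role) in each of the 12 libraries (columns, 2 per condition), as log2(CPM + 1) less the mean of the WT basal libraries; red is higher and blue lower, and colours stop at a difference of 2.5. Most V-ATPase rows are red in WT RANKL and not in Mir182ΔM/ΔM RANKL, most lysosomal rows are blue in both, and the 2 libraries of a condition look alike.

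The largest shifts among pump genes were between isoforms of subunits a and d. On GRCm38, Atp6v0d2 lies on the minus strand at chr4:19876841-19922605, Atp6v0d1 on the minus strand at chr8:105524465-105566047, Atp6v0a1 on the plus strand at chr11:101009452-101063719 and Tcirg1 on the minus strand at chr19:3896050-3907133. Atp6v0d2, the d2 subunit, was at 39.0 and 30.02 CPM in the 2 WT basal libraries and 718 and 553 CPM in WT RANKL, and at 41.6 and 31.9 CPM in Mir182ΔM/ΔM basal and 118 and 95.7 CPM in Mir182ΔM/ΔM RANKL. Both genotypes were well above their basal libraries, and WT RANKL was far above Mir182ΔM/ΔM RANKL, without overlap. The log2 change was 4.16 ± 0.20, adjusted p = 2.80e-06 in WT and 1.52 ± 0.20, adjusted p = 5.07e-04 in Mir182ΔM/ΔM. Its partner Atp6v0d1, the d1 subunit found in all tissues, was at 279 and 283 CPM in WT basal and 228 and 248 CPM in WT RANKL, a change of -0.24 ± 0.07, adjusted p = 0.0146. That small fall did not pass without WT basal replicate 2 (adjusted p = 0.0628) or without WT RANKL replicate 1 (adjusted p = 0.0993). In Mir182ΔM/ΔM Atp6v0d1 went from 261 and 268 to 165 and 174 CPM (-0.64 ± 0.07, adjusted p = 1.59e-04). Per kilobase of gene length, Atp6v0d2 made up 8.27 and 6.41% of d subunit transcripts in WT basal, 67.1 and 59.1% in WT RANKL, 9.35 and 7.14% in Mir182ΔM/ΔM basal and 31.7 and 26.2% in Mir182ΔM/ΔM RANKL. It was thus the larger of the pair only in WT RANKL.

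Among the a subunits, Atp6v0a1, the a1 form, fell with RANKL in both genotypes. It was at 602 and 557 CPM in WT basal and 160.1 and 149 CPM in WT RANKL, and it went from 569 and 550.1 to 157 and 151 CPM in Mir182ΔM/ΔM, with log2 changes of -1.90 ± 0.07 (adjusted p = 8.58e-07) and -1.85 ± 0.07 (adjusted p = 1.29e-06). Tcirg1, the a3 subunit of the ruffled border, went the other way in WT, from 636 and 816 CPM to 1143 and 1427 CPM (0.83 ± 0.17, adjusted p = 0.00412). In Mir182ΔM/ΔM it went from 657 and 790.5 to 772 and 917 CPM, where the ranges overlapped, with a change of 0.22 ± 0.17, adjusted p = 0.295 and, with the replicate block, an adjusted p = 7.63e-07. Atp6v0a2, known from the Golgi and endosomes, was the lowest of the 3 and went from 55.5 and 64.6 to 79.7 and 85.3 CPM in WT (0.46 ± 0.09, adjusted p = 0.00379) and from 65.4 and 71.5 to 91.5 and 92.2 CPM in Mir182ΔM/ΔM (0.42 ± 0.09, adjusted p = 0.00627). The WT value did not pass with TMM factors (0.25, adjusted p = 0.0571). Per kilobase, Tcirg1 made up 54.6 and 62.2% of these 3 a subunits in WT basal and 86.4 and 89.1% in WT RANKL, and its share went from 56.4 and 61.5% to 80.6 and 83.5% in Mir182ΔM/ΔM. The share of a3 was thus higher with RANKL than without it in both genotypes, without overlap of libraries.

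**Figure D2:**
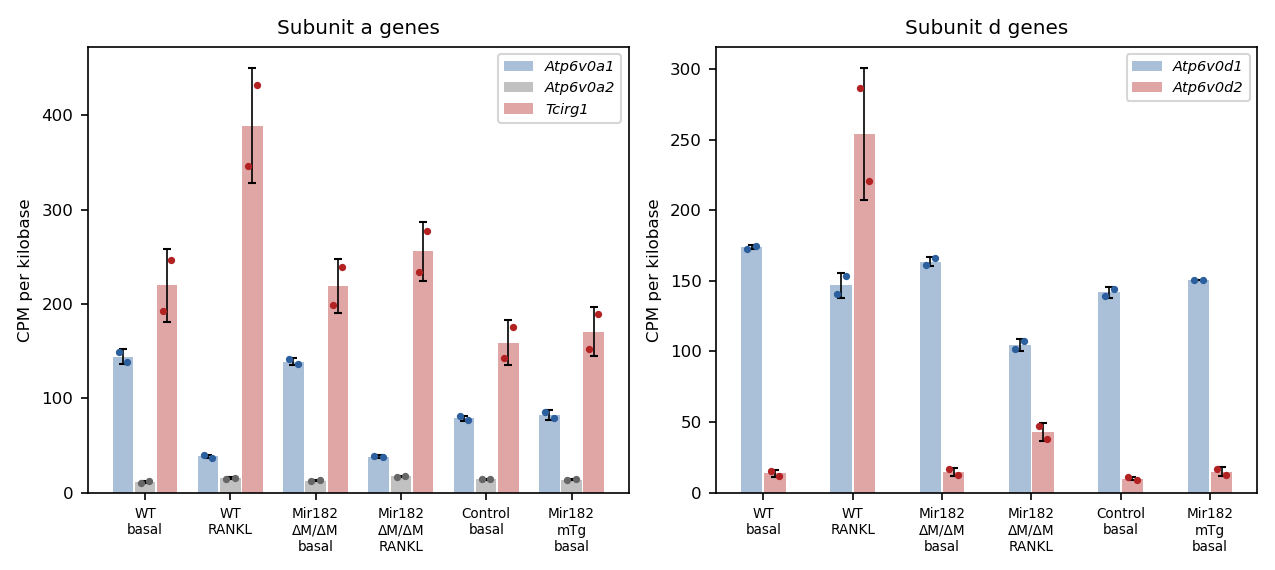
Levels per kilobase (CPM divided by gene length) of the 3 subunit a genes (left) and the 2 subunit d genes (right) in the 6 conditions; bars are means, whiskers the SD of 2 libraries and points the libraries. Atp6v0d2 exceeds Atp6v0d1 in WT RANKL only, and Atp6v0a1 is low in both RANKL conditions.

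The remaining V0 genes are small membrane subunits. Atp6v0e was at 146 and 155 CPM in WT basal and 243 and 277 CPM in WT RANKL (0.78 ± 0.10, adjusted p = 3.60e-04), and went from 133 and 152 to 140.3 and 153 CPM in Mir182ΔM/ΔM, where it did not pass (0.04 ± 0.10, adjusted p = 0.74). Atp6v0b, one of the proteolipids of the rotor ring, was at 302 and 391.6 CPM in WT basal and 459 and 580.4 CPM in WT RANKL (0.58 ± 0.19, adjusted p = 0.0322). With TMM factors that change was 0.37 with an adjusted p = 0.142, so the call was lost. Atp6v0c, the main proteolipid, was listed with 0 to 4 reads per library (13 in all) and was not tested. Processed pseudogene copies of it, Atp6v0c-ps1 and Atp6v0c-ps2, are annotated, and how reads shared between such copies were counted is not given in the sources used here, so its level is uncertain.

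In the V1 sector, which binds and hydrolyses ATP, 5 of 8 genes rose with RANKL in WT and none fell, whereas in Mir182ΔM/ΔM none rose and 4 fell. Of all genes, 40.6% were called higher and 22.0% lower in WT, and 30.4% and 26.4% in Mir182ΔM/ΔM. With TMM factors the shares in WT were 28.7% and 30.5%, and some of the V1 calls changed, as given below. Atp6v1b2, the B2 subunit beside the catalytic A subunit, was at 499 and 591 CPM in WT basal and 1141 and 1344 CPM in WT RANKL (1.19 ± 0.14, adjusted p = 2.58e-04). In Mir182ΔM/ΔM it went from 530.2 and 613 to 563 and 684 CPM, a change of 0.12 ± 0.14 that did not pass (adjusted p = 0.479). Atp6v1d, a subunit of the central stalk, rose in WT and fell in Mir182ΔM/ΔM. It was at 145 and 125 CPM in WT basal, 309 and 276 CPM in WT RANKL, 139 and 117 CPM in Mir182ΔM/ΔM basal and 104 and 94.4 CPM in Mir182ΔM/ΔM RANKL. The changes were 1.11 ± 0.12, adjusted p = 1.53e-04 in WT and -0.35 ± 0.12, adjusted p = 0.0361 in Mir182ΔM/ΔM. Atp6v1c1, the C subunit that takes part in the joining of V1 and V0, behaved likewise, from 235 and 235 to 368 and 361 CPM in WT (0.63 ± 0.05, adjusted p = 4.63e-05) and from 240.2 and 241 to 189.6 and 194 CPM in Mir182ΔM/ΔM (-0.32 ± 0.05, adjusted p = 0.00158). Atp6v1a, the catalytic subunit, was the most abundant V1 gene in WT basal at 912 and 1002 CPM and did not pass with RANKL in WT (0.16 ± 0.10, adjusted p = 0.192), but fell from 896 and 974 to 546 and 633 CPM in Mir182ΔM/ΔM (-0.67 ± 0.10, adjusted p = 0.00103). The other 4 V1 genes, Atp6v1e1, Atp6v1f, Atp6v1g1 and Atp6v1h, changed by 0.41, 0.27, -0.24 and 0.37 in WT, where Atp6v1e1 and Atp6v1h passed, though not with TMM factors (adjusted p = 0.123 and 0.308), and by -0.08, -0.16, -0.55 and -0.10 in Mir182ΔM/ΔM, where Atp6v1g1 alone passed. Of the accessory subunits, Atp6ap2, the prorenin receptor, rose in WT (0.49, adjusted p = 0.00502) but not with TMM factors (adjusted p = 0.0555), and Atp6ap1 did not pass in either genotype. With TMM factors Atp6v1g1 (-0.45, adjusted p = 0.0107) and Atp6ap1 (-0.38, adjusted p = 0.00674) were lower in WT.

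Among lysosomal proteases were the largest falls in WT and 3 of the 6 lysosomal genes that did not fall in both genotypes. Ctsb, cathepsin B, was among the most abundant members at 19860.1 and 20195 CPM in WT basal and 4017 and 4174 CPM in WT RANKL, and went from 18499.9 and 19828 to 8063 and 8515 CPM in Mir182ΔM/ΔM. Levels fell in both genotypes without overlap, and the mean in Mir182ΔM/ΔM RANKL was 2.02 times that in WT RANKL. The changes were -2.29 ± 0.08, adjusted p = 5.47e-07 in WT and -1.21 ± 0.08, adjusted p = 1.31e-05 in Mir182ΔM/ΔM, although quantile normalization, which gives every library the same distribution, left the latter at -0.20 (adjusted p = 0.346). Ctsd, cathepsin D, fell from 14752 and 15151 to 4503 and 4695 CPM in WT (-1.70 ± 0.08, adjusted p = 2.23e-06) and from 13822 and 14816 to 7740.1 and 8264 CPM in Mir182ΔM/ΔM (-0.84 ± 0.08, adjusted p = 8.52e-05). Lgmn, the asparaginyl endopeptidase legumain, fell from 2443 and 2258 to 534 and 497 CPM in WT (-2.19 ± 0.08, adjusted p = 7.70e-07) and from 2206 and 2093 to 798 and 733 CPM in Mir182ΔM/ΔM (-1.49 ± 0.08, adjusted p = 5.82e-06). The proteases Ctsa (-0.22 and -0.26), Ctsz (-0.71 and -0.17) and Tpp1 (-0.33 and -0.64) also fell in WT and in Mir182ΔM/ΔM.

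The remaining 3 cathepsins departed from this. Ctsl, cathepsin L, was the one lysosomal member that fell in one genotype and rose in the other. It was at 967 and 1007 CPM in WT basal, 744 and 826 CPM in WT RANKL, 995 and 1098 CPM in Mir182ΔM/ΔM basal and 2009 and 2314 CPM in Mir182ΔM/ΔM RANKL, with changes of -0.33 ± 0.09, adjusted p = 0.0186 in WT and 1.04 ± 0.09, adjusted p = 8.48e-05 in Mir182ΔM/ΔM. Ctsh, cathepsin H, did not pass in WT, with 67.6 and 63.2 CPM basal and 61.1 and 63.9 CPM with RANKL (-0.06 ± 0.08, adjusted p = 0.483; with TMM factors it was lower, at -0.27, adjusted p = 0.0161) and fell in Mir182ΔM/ΔM from 65.2 and 62.8 to 19.5 and 18.1 CPM (-1.71 ± 0.08, adjusted p = 2.71e-06). Ctss, cathepsin S, known for processing the MHC class II invariant chain, rose in both, from 1282 and 1149 to 1752 and 1565 CPM in WT (0.45 ± 0.09, adjusted p = 0.00391) and from 1729.7 and 1573 to 2739.9 and 2624 CPM in Mir182ΔM/ΔM (0.70 ± 0.09, adjusted p = 5.00e-04).

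The 7 glycosidases and the sulfatase Galns mostly fell. With RANKL 7 of 8 fell in WT and 8 of 8 in Mir182ΔM/ΔM, and none rose, with medians of -0.75 and -0.59. Of all genes, 22.0% were called lower in WT and 26.4% in Mir182ΔM/ΔM. Hexa, the alpha subunit of beta-hexosaminidase, fell from 1439 and 1398 to 772 and 731 CPM in WT (-0.92) and from 1267 and 1250.2 to 703 and 694 CPM in Mir182ΔM/ΔM (-0.85), both past the test. Gla, alpha-galactosidase A, fell by more in WT, from 169 and 159 to 79.9 and 80.5 CPM (-1.02), than in Mir182ΔM/ΔM, from 184 and 177 to 139.6 and 143 CPM (-0.35), and the difference between the responses was 0.67 ± 0.09 (adjusted p = 0.00166). Gaa, the acid alpha-glucosidase that breaks down glycogen, was the member of this class that did not pass in WT (-0.07 ± 0.06, adjusted p = 0.366), although with TMM factors it was lower (-0.28, adjusted p = 0.00684), and it fell in Mir182ΔM/ΔM (-0.57 ± 0.06). The others, Glb1, Gusb, Neu1, Man2b1 and Galns, fell by 0.45 to 0.89 in WT.

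Of the 6 genes of lipid breakdown, 5 fell with RANKL in WT and none rose (22.0% of all genes lower and 40.6% higher). Psap, the precursor of the saposins that present lipids to hydrolases, was at 12135 and 13730.2 CPM in WT basal and 4594 and 5224 CPM in WT RANKL (-1.40 ± 0.12, adjusted p = 4.51e-05), and went from 10626 and 12309 to 5489 and 6108 CPM in Mir182ΔM/ΔM (-0.98 ± 0.12, adjusted p = 3.25e-04). Ppt1, palmitoyl-protein thioesterase, fell from 242 and 219 to 84.8 and 85.0 CPM in WT (-1.43 ± 0.07, adjusted p = 3.32e-06). Lipa, the acid lipase, and Asah1, acid ceramidase, changed by -1.16 and -0.80 in WT and by -0.51 and -0.39 in Mir182ΔM/ΔM, all past the test. Grn, progranulin, fell in WT from 3152 and 3107 to 1723 and 1699 CPM (-0.87 ± 0.06, adjusted p = 1.72e-05) but did not pass in Mir182ΔM/ΔM, with 3176 and 3311 CPM basal and 3222 and 3158 CPM with RANKL (-0.02 ± 0.06, adjusted p = 0.754). Npc2, which carries cholesterol within the lysosome, was the exception that rose in Mir182ΔM/ΔM, from 955 and 1115 to 1689 and 2049 CPM (0.85 ± 0.13, adjusted p = 0.0014). In WT its values were 972 and 1125 CPM basal and 1108 and 1285 CPM with RANKL, overlapping, with a change of 0.19 ± 0.13 (adjusted p = 0.255).

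All 4 lysosomal membrane genes fell with RANKL in both genotypes, where 22.0% of all genes were lower in WT and 26.4% in Mir182ΔM/ΔM. Lamp1, a main glycoprotein of the lysosomal membrane, was at 3310.5 and 3206 CPM in WT basal and 1419 and 1378 CPM in WT RANKL, and went from 2886 and 2942 to 2055 and 2089 CPM in Mir182ΔM/ΔM. The changes were -1.22 ± 0.06, adjusted p = 3.04e-06 in WT and -0.49 ± 0.06, adjusted p = 3.45e-04 in Mir182ΔM/ΔM. Lamp2, its companion with a role in autophagy, fell from 959 and 891 to 425 and 391 CPM in WT (-1.18 ± 0.07, adjusted p = 8.76e-06) and from 898 and 869.6 to 702 and 669 CPM in Mir182ΔM/ΔM (-0.37 ± 0.07, adjusted p = 0.00349). The cholesterol carrier Npc1 and the calcium channel Mcoln1 changed by -0.85 and -0.25 in WT and by -0.92 and -0.46 in Mir182ΔM/ΔM. Of the transcription factors, Tfeb was called in WT, and neither was called in Mir182ΔM/ΔM. Tfeb was at 33.05 and 40.5 CPM in WT basal and 44.8 and 55.6 CPM in WT RANKL (0.44 ± 0.14, adjusted p = 0.026), a call that was lost with TMM factors (0.23, adjusted p = 0.194), with quantile normalization, in a fit of these 4 libraries alone (adjusted p = 0.0572), and without WT basal replicate 1 (0.29, adjusted p = 0.14) or WT RANKL replicate 2 (0.29, adjusted p = 0.147). In Mir182ΔM/ΔM Tfeb was at 30.4 and 34.3 CPM basal and 37.6 and 36.4 CPM with RANKL (0.19 ± 0.14, adjusted p = 0.266). Tfe3, between 154 and 199 CPM in all 12 libraries, was not called with RANKL in either genotype (-0.19 ± 0.08 in WT, adjusted p = 0.0639), but with TMM factors it was lower in WT (-0.40, adjusted p = 0.00285). The 7 genes whose promoters held TCACGTGA changed by -1.70 (Ctsd) to 0.78 (Atp6v0e) with RANKL in WT, so the motif was shared by genes that rose and genes that fell.

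Together the lysosomal genes took up a large part of the RNA, and this part shrank with RANKL. The 27 lysosomal genes held 7.08 and 7.26% of reads in WT basal, 2.74 and 2.82% in WT RANKL, 6.61 and 7.03% in Mir182ΔM/ΔM basal and 4.16 and 4.38% in Mir182ΔM/ΔM RANKL. Ctsb, Ctsd and Psap alone held 4.67 and 4.91% in WT basal and 1.31 and 1.41% in WT RANKL. The 18 V-ATPase genes held 0.520 and 0.572% in WT basal, 0.735 and 0.806% in WT RANKL, 0.512 and 0.560% in Mir182ΔM/ΔM basal and 0.436 and 0.496% in Mir182ΔM/ΔM RANKL. Per kilobase, Ctsd was the highest member in all 6 conditions, at 7652 ± 144 in WT basal and 2354 ± 69.6 in WT RANKL (mean ± SD, n = 2), followed by Psap in both. The third place went from Ctsb (4223 ± 50.003) in WT basal to Ctss (1220 ± 97.2) in WT RANKL.

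**Figure D3:**
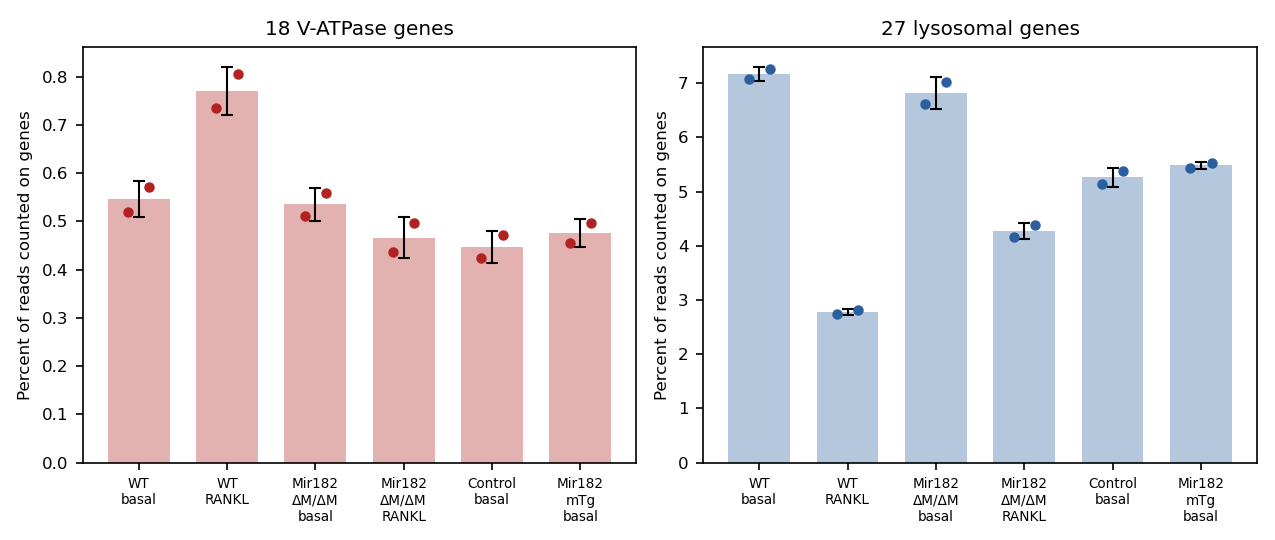
Share of all reads on genes taken by the 18 V-ATPase genes (left) and the 27 lysosomal genes (right) in the 6 conditions, in percent, on separate axes that start at 0; bars are means, whiskers the SD of 2 libraries and points the libraries. The V-ATPase share is highest in WT RANKL, where the lysosomal share is lowest.

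Whether the response to RANKL differed between genotypes was tested as the genotype by RANKL interaction. Pump genes that differed had a lower response in Mir182ΔM/ΔM, and most lysosomal genes that differed had a higher one. Of 17 V-ATPase genes, 9 had a lower response in Mir182ΔM/ΔM and none a higher one, and of 27 lysosomal genes 13 had a higher and 3 a lower one, where 7.44% of all genes were called higher and 17.1% lower. The medians were -0.49 and 0.42, beside -0.15 for all genes. With TMM factors, which put the median gene at 0.00, 6 V-ATPase genes were lower, and 17 lysosomal genes were higher and 2 lower (10.5% and 11.0% of all genes). The share of calls that were higher went from 30.3% to 48.7% over all genes. With the replicate block 14 V-ATPase genes were lower and 1 higher, and 18 lysosomal genes were higher and 5 lower (16.1% and 42.8% of all genes). The lowest differences were at Atp6v0d2 (-2.64 ± 0.28, adjusted p = 6.62e-04), Ctsh (-1.65), Atp6v1d (-1.46), Atp6v1b2 (-1.06) and Atp6v1c1 (-0.96). The highest were at Ctsl (1.38 ± 0.13, adjusted p = 4.78e-04), Ctsb (1.08), Ctsd (0.86), Grn (0.85) and Lamp2 (0.81). All 46 members had the same sign of this difference in both replicates, those within their error among them. The share of all genes with the same sign is not given here, so this count is not read as a result about the members. For Atp6v0a1 the difference was within its error (0.05 ± 0.10, adjusted p = 0.779). For Tcirg1 the difference was -0.60 ± 0.24 (adjusted p = 0.115, and 1.13e-10 with the replicate block). Atp6v0d1 passed (-0.40 ± 0.09, adjusted p = 0.0203) but not with TMM factors (-0.23, adjusted p = 0.135), nor without any one of 6 of the 8 libraries in turn.

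**Figure D4:**
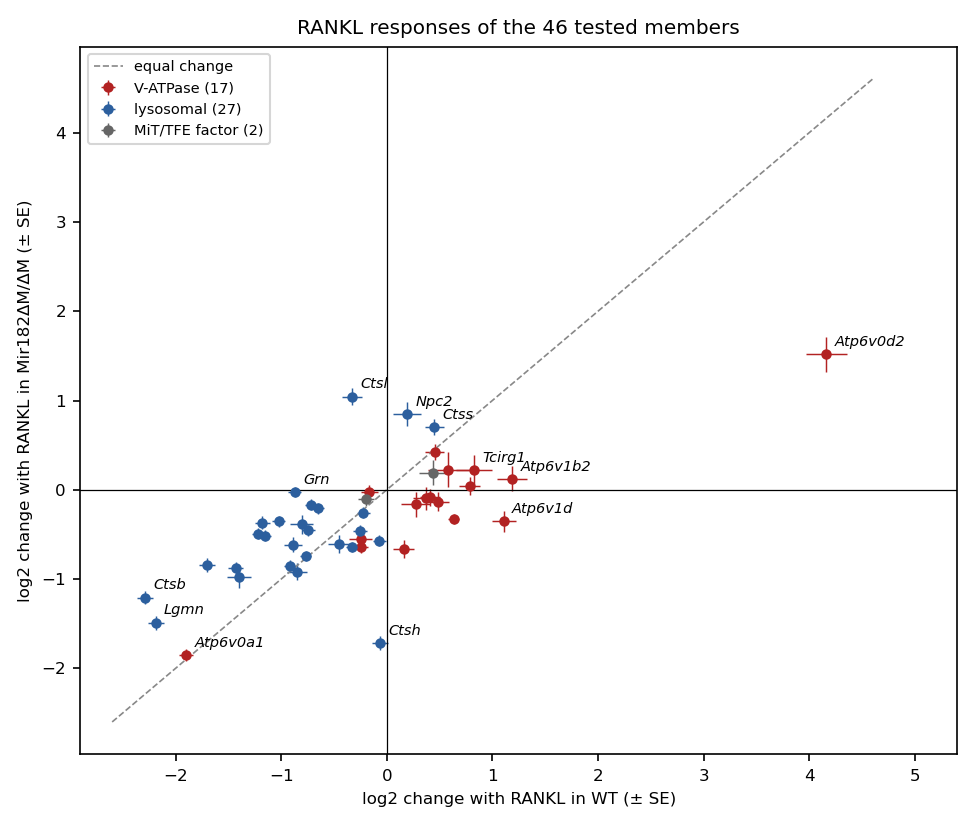
Log2 change with RANKL in WT (horizontal) against that in Mir182ΔM/ΔM (vertical) for the 46 members tested, with SE as whiskers and a dashed line of equal change. V-ATPase genes (red) lie mostly right of zero and below the line, with Atp6v0d2 at 4.16 and 1.52, and lysosomal genes (blue) lie mostly lower left and above the line.

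The genotypes were also compared directly after RANKL, with the same libraries. In Mir182ΔM/ΔM RANKL against WT RANKL, 14 of 17 V-ATPase genes were lower and none higher, all 8 V1 genes among them, and 14 of 27 lysosomal genes were higher and 4 lower (14.3% of all genes higher and 30.9% lower). The medians were -0.60 and 0.39, beside -0.14 for all genes. Leaving out WT RANKL replicate 2 or Mir182ΔM/ΔM RANKL replicate 1 brought the V-ATPase count to 9. With TMM factors (median gene -0.01) 10 V-ATPase genes were lower and 1 higher, and 18 lysosomal genes were higher and 3 lower (20.6% and 20.5% of all genes), and the share of calls that were higher went from 31.6% to 50.1% over all genes. By size the lowest were Atp6v0d2, 5.94-fold lower in mean CPM (-2.56 ± 0.20, adjusted p = 6.84e-05), Ctsh, 3.32-fold lower (-1.68 ± 0.08, adjusted p = 7.38e-06), Atp6v1d (-1.55), Atp6v1b2 (-0.9954) and Atp6v1c1 (-0.92). The highest were Ctsl, 2.75-fold higher (1.46 ± 0.09, adjusted p = 3.17e-05), Ctsb (1.02 ± 0.08, adjusted p = 5.65e-05), Grn (0.90), Gla (0.81) and Ctsd (0.80). Lamp1 and Lamp2 were higher by 0.57 and 0.75. Beside Ctsh, the lysosomal genes that were lower were Gaa (-0.62), Tpp1 (-0.41), a serine protease, and Mcoln1 (-0.28), of which Mcoln1 did not pass with TMM factors (adjusted p = 0.156). The difference of Tcirg1 was -0.60 ± 0.17 (adjusted p = 0.0242), but not past the test with TMM factors (-0.45, adjusted p = 0.0759) or without WT RANKL replicate 2 or Mir182ΔM/ΔM RANKL replicate 1. That of Tfeb was -0.42 ± 0.14 (adjusted p = 0.0409), and this call was lost with TMM factors (adjusted p = 0.163) and without WT RANKL replicate 2 or either Mir182ΔM/ΔM RANKL library. Atp6v0a1 (-0.0031), Atp6v0a2 (0.15) and Atp6ap1 (0.08) were the V-ATPase genes that did not pass. With TMM factors they were at 0.14, 0.30 and 0.23 (adjusted p = 0.12, 0.0405 and 0.0674).

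**Figure D5:**
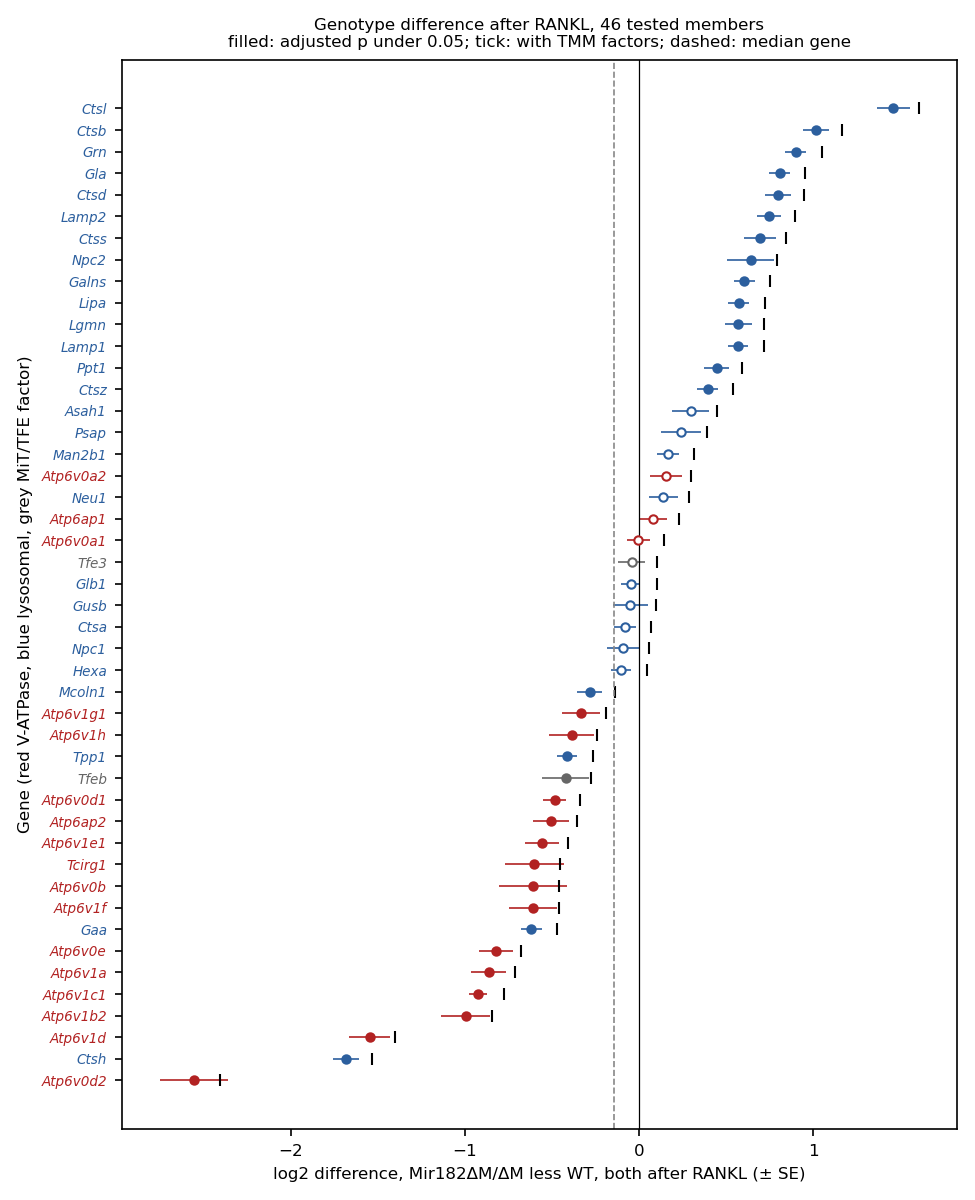
Log2 difference of Mir182ΔM/ΔM RANKL less WT RANKL for the 46 members tested, in order, with SE as whiskers; filled points have an adjusted p under 0.05, black ticks are the values with TMM factors and the dashed line is the median of all genes (-0.14). V-ATPase genes (red) fill the lower end and lysosomal genes (blue) the upper end, with Ctsh, Gaa, Tpp1 and Mcoln1 among the former.

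Since WT RANKL stood apart from WT basal in Lyz2, the same libraries were set against Control basal, the BMMs of the other experiment, in a fit of all 12 libraries. This comparison shares the WT RANKL libraries with those above and is no independent replicate of them, and RANKL and experiment cannot be told apart in it. Of 17 V-ATPase genes 11 were higher and 1 lower, and of 27 lysosomal genes 2 were higher and 20 lower, where 29.6% of 11794 genes were called higher and 23.1% lower. Medians were 0.57 and -0.48, beside 0.06 for all genes. Atp6v0d2, at 27.1 and 22.7 CPM in Control basal, was higher by 4.61 ± 0.21, adjusted p = 1.30e-07. Atp6v1d (1.48), Atp6v1b2 (1.41), Tcirg1 (1.29) and Atp6v0b (0.90) followed, and Atp6v0a1, at 325 and 311 CPM in Control basal, was the V-ATPase gene that was lower (-1.04 ± 0.07, adjusted p = 1.46e-06). The basal level of some proteases differed between the experiments, so their differences depended on the comparator. Ctsl was at 2467 and 2750.0 CPM in Control basal, above every loss of function library, and WT RANKL was lower (-1.73 ± 0.09, adjusted p = 4.77e-07). Ctsh was at 142 and 140.1 CPM in Control basal, above its WT basal level, and WT RANKL was lower (-1.16 ± 0.07, adjusted p = 7.23e-07). Ctss, which rose against WT basal, was lower against Control basal (-0.53), where it stood at 2512 and 2263 CPM. The other largest negative differences were at Ctsb (-1.57), Ctsd (-1.55) and Galns (-1.32).

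Without RANKL a single member was called between the genotypes. In Mir182ΔM/ΔM basal against WT basal, 1 of 46 members was higher and none lower in limma (2.71% and 1.10% of all genes), and 5 had an unadjusted p under 0.05. The member was Ctss, at 1282 and 1149 CPM in WT basal and 1729.7 and 1573 CPM in Mir182ΔM/ΔM basal (0.44 ± 0.09, adjusted p = 0.0468). It kept its direction but not its call without any one of the 4 libraries in turn (adjusted p = 0.104 to 0.284), with quantile normalization, with no filter, in a fit of these 4 libraries alone, or in a fit without the WT RANKL group (adjusted p = 0.0648). With the replicate block 7 members were higher and 15 lower, with values between -0.25 and 0.44, where 18.6% and 12.7% of all genes were called. The a and d isoforms were among the genes that did not pass, with Atp6v0d2 at 0.09 ± 0.20, Tcirg1 at 0.00 ± 0.17 and Atp6v0a1 at -0.05 ± 0.07.

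In the gain of function experiment, tested with edgeR's quasi-likelihood test on counts, none of 46 members was called in Mir182mTg against Control (0.0993% of 12081 genes higher and 0.157% lower). An unadjusted p under 0.05 was reached by 4 members, namely Ctss, Atp6v0d2, Ctsh and Ctsl. DESeq2 called 1 member, Ctss. Ctss was at 2512 and 2263 CPM in Control and 1770.3 and 1627 CPM in Mir182mTg, lower in both replicates and without overlap (-0.50 ± 0.09, adjusted p = 0.165). It passed in DESeq2 (adjusted p = 0.00396), with no filter on low counts (0.0283) and without Control replicate 2 (0.0375). Atp6v0d2 was at 27.1 and 22.7 CPM in Control and 42.8 and 32.0 CPM in Mir182mTg (0.58 ± 0.17, adjusted p = 0.488). With the replicate block 13 members were higher and 3 lower (6.94% and 8.15% of all genes), Atp6v0d2 (adjusted p = 4.82e-06) and Ctss (adjusted p = 1.71e-09) among them. The other higher members changed by 0.09 to 0.28. The osteoclast marker sum was 24.9 to 28.0 CPM in Control and 40.9 to 41.2 CPM in Mir182mTg, and the neutrophil sum 49.5 to 50.7 and 107 to 117 CPM, and their part in these values was not tested.

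Other genes of the same organelle, 71 in 6 lists, were examined in the same fits. Of 7 further V-ATPase genes, 5 (Atp6v0a4, Atp6v1b1, Atp6v1c2, Atp6v1e2 and Atp6v1g3) were listed at 0 in all 12 libraries, Atp6v0e2 was at most at 0.383 CPM, and Atp6v1g2, at 2.87 to 7.61 CPM, was the one tested and did not pass in any comparison. Over the 64 genes tested, 14 rose and 33 fell with RANKL in WT (median -0.34, beside 40.6% and 22.0% of all genes called and a median of 0.19), and 10 rose and 33 fell in Mir182ΔM/ΔM (median -0.32, beside 30.4%, 26.4% and 0.05). Of 25 other hydrolases, 7 rose and 11 fell with RANKL in WT, and 4 and 12 in Mir182ΔM/ΔM. The largest rises were at Ctsk, the collagen-degrading cathepsin K, and Acp5, the acid phosphatase TRAP, both also on the osteoclast marker list. Ctsk went from 3.52 and 2.40 to 1778 and 1962 CPM in WT (8.90) and from 4.51 and 4.07 to 492 and 547 CPM in Mir182ΔM/ΔM (6.62). Acp5 changed by 8.82 and 6.63. In either direction, the next largest change in WT was a rise at Arsb, a sulfatase (1.42). In Mir182ΔM/ΔM it was a fall at Sgsh, the sulfamidase of heparan sulfate (-1.90). Of 20 other membrane genes, 0 rose and 13 fell in WT and 1 and 12 in Mir182ΔM/ΔM. The metal transporter Slc11a1 fell by 1.75 in WT and 0.88 in Mir182ΔM/ΔM.

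Among 6 genes that deliver enzymes to the lysosome, Sort1, sortilin, fell from 296 and 277 to 45.4 and 43.0 CPM in WT (-2.67 ± 0.07, adjusted p = 2.40e-07) and from 259 and 255 to 21.1 and 20.1 CPM in Mir182ΔM/ΔM (-3.58 ± 0.07, adjusted p = 1.78e-07). The mannose 6-phosphate receptor Igf2r rose by 1.40 and 1.35. Gnptab, which makes the mannose 6-phosphate tag, rose in WT (1.22) and was lower in Mir182ΔM/ΔM than in WT after RANKL (-0.96 ± 0.08, adjusted p = 1.02e-04). Of 7 other MiT/TFE and nutrient sensing genes, 2 rose and 5 fell in WT (40.6% and 22.0% of all genes). In Mir182ΔM/ΔM 0 rose and 5 fell (30.4% and 26.4% of all genes). Fnip2 and Flcn, partners of the Rag GTPases, fell by 1.61 and 1.15 in WT and by 1.61 and 1.13 in Mir182ΔM/ΔM. After RANKL the family members Tfec (-1.14) and Mitf (-0.84), a factor that osteoclasts need, were lower in Mir182ΔM/ΔM than in WT. Of 6 genes of lysosome secretion in osteoclasts, 5 were tested. Rab38 rose in WT (2.56) and in Mir182ΔM/ΔM (1.08), Snx10, whose loss causes osteopetrosis, rose in WT (1.18), and both were lower in Mir182ΔM/ΔM after RANKL (-1.37 and -0.60). Over the 64 genes tested, 12 were higher and 25 lower in Mir182ΔM/ΔM than in WT after RANKL (median -0.13, beside 14.3% and 30.9% of all genes and a median of -0.14), and 16 and 16 with TMM factors, beside 20.6% and 20.5%. These shares lay near those of all genes. At baseline 1 was higher (Igf2r, 0.36) and 1 lower (Hgsnat, -1.34), and none was called in Mir182mTg.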

How the data were processed

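RNA-seq values of 12 libraries were used. For the loss of function experiment the authors deposited CPM per gene, from which whole reads were recovered (100% of values within 0.01 of a whole read), and for the gain of function experiment they deposited counts. RPKM, deposited for replicate 1, served here only for the length of each gene. Per the labels, replicate 1 was processed with TopHat and Cufflinks and labelled polyA RNA, and replicate 2 with HISAT2, HTSeq and edgeR and labelled total RNA, all on mm10; versions are not given in the sources used here.

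Counts were scaled to CPM. Genes with at least 1 CPM in 2 samples were tested on log2(CPM + 1) with limma 3.58.1 in R 4.3.3, with the 4 loss of function groups in a single fit (11691 genes), and the gain of function counts with edgeR 4.0.16's quasi-likelihood test (12081 genes); fold changes of low genes are understated by the pseudocount of 1. Benjamini-Hochberg adjustment covered all genes tested in a fit. EdgeR's SE is the absolute log2 change divided by the square root of F. Alternatives covered the filter, pseudocount, TMM and quantile scaling, the replicate block, edgeR or DESeq2 1.42.0, a fold of 1.5, fits of fewer groups (the one without the WT RANKL group was chosen after seeing the data) and leaving out each library. Replicate numbers were taken to pair the libraries because replicate 1 and replicate 2 differ in their labelled processing, and the log ratios of replicate 2 to replicate 1 correlated across genes between conditions (r = 0.686 to 0.754 over 15 pairs of conditions; genes are not independent). Replicates differed well beyond sampling noise (chi-square per gene 38.9 to 72.2). On simulated data with 200 genes changed by a log2 change of 1, 100% were recovered in the WT RANKL comparison (11439 genes; 3.85% of calls false) and in the Mir182mTg comparison (12055 genes; 6.10% false). The simulated counts had a small fixed spread, well-measured changed genes and no shared difference between replicates, unlike the real libraries. They check that the steps run correctly and do not give the power of the real tests.

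Members and lists were chosen with earlier results of these data known. Genes were named by rule: the 5 members with the largest change in each direction in each comparison, the a and d subunit isoforms, Lamp1, Lamp2, Tfeb and Tfe3, members not tested, and the 3 largest changes per pathway list; others were added after their values were seen, to complete a class. Of the symbols listed, 27 were damaged to dates and left as they were. Precision covers counting and library spread only. Promoters were searched for TCACGTGA and CACGTG in RefSeq sequence, and gene positions are those of GENCODE vM21.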

Additional observations from a re-analysis of the deposited data

Results flagged for a closer look

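The RANKL response of members differed between WT and Mir182ΔM/ΔM by the interaction term of the limma fit, with 13 members higher and 12 lower in Mir182ΔM/ΔM. Of all genes, 7.44% were called higher and 17.1% lower. The lower responses were led by Atp6v0d2 (-2.64), Ctsh (-1.65), Atp6v1d (-1.46), Atp6v1b2 (-1.06) and Atp6v1c1 (-0.96), on the log2 scale. The higher responses were led by Ctsl (1.38), Ctsb (1.08), Ctsd (0.86), Grn (0.85) and Lamp2 (0.81). All 10 had the same sign in both replicates, but they were chosen by size and call from these libraries, so this adds no support. Each rests on the WT RANKL libraries, in which Lyz2 was at 4117 and 4288 CPM against 22.5 to 44.0 CPM in the other loss of function libraries, so genotype, RANKL and the origin of the cells cannot be told apart in them.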

How the results depend on the processing

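The 69 named results counted here were all calls with an adjusted p under 0.05, refitted on the same libraries. Calls gained under an alternative are not in this count. None of the 69 reversed, which this choice made likely, and 61 kept their call under every alternative. In 39 of 947 alternatives a named call was lost. Among all members tested, the sign of 1 to 7 per comparison in the loss of function libraries and against Control basal changed with TMM factors (7 after RANKL), none of them called in opposite directions. With RANKL in WT, 13 members were higher, against 7 with TMM factors, 7 with edgeR on recovered reads and 6 with a fold of at least 1.5. With RANKL in Mir182ΔM/ΔM, 29 were lower, against 15 with the fold. Against Control basal, 13 were higher and 21 lower, against 7 and 11 with the fold. After RANKL, 14 were higher and 19 lower, against 9 and 11 with the fold. At baseline the 1 higher member became 0 with no filter, quantile normalization, the samples of the contrast alone, the fold, or without the WT RANKL group. In Mir182mTg none was lower, against 1 with no filter and 1 in DESeq2. Over all genes, 40.6% were called higher with RANKL in WT, and 28.7% with TMM factors. For the other alternatives of this paragraph the shares of all genes are not given here. The changes in these counts are therefore not read as a result about the members, and their causes were not tested.

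With the replicate block, which pairs the libraries, higher and lower members numbered 9 and 34 with RANKL in Mir182ΔM/ΔM, 7 and 15 at baseline, 19 and 20 for the interaction, and 13 and 3 in Mir182mTg. With the replicate block and TMM factors, members higher with RANKL in Mir182ΔM/ΔM numbered 8, members higher and lower at baseline 6 and 24, members higher after RANKL 25, and members with a higher response 24. The shares of all genes in that setting are not given here, so these counts are not read as a result about the members. The block moved no other count of members by over 1.5 times.

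Leaving out each library in turn, the lone library of its group being assumed to vary like the other groups, gave 9 to 13 higher and 22 to 23 lower with RANKL in WT, 5 and 24 to 27 in Mir182ΔM/ΔM, 10 to 14 and 20 to 21 against Control basal, 0 and 0 at baseline, 14 and 13 to 16 after RANKL, 12 to 13 and 8 to 12 for the interaction, and 0 and 0 to 1 in Mir182mTg. The shares of all genes called without a library are not given here, so these counts are not read as a result about the members. With RANKL in WT, and after RANKL, Tfeb was lost under TMM factors, quantile normalization and edgeR. A fit of the contrast's samples alone is not possible for the interaction. With 2 libraries a group, small changes were often not called in the fits without the replicate block, and Atp6v0c lay at the depth limit of 3 reads.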
